A study of Homo sapiens with 20 samples.

Results

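The CYP2, CYP3 and CYP4 families of cytochrome P450 were followed in differentiated Caco-2 cells, a human colorectal cancer line that forms an enterocyte-like layer, exposed to probiotic bacteria or to bacterial culture supernatants. Members were all genes whose symbol in the array's annotation was CYP2, CYP3 or CYP4 followed by a subfamily letter and a number. They came to 27 of the 19775 genes with a named probe set, with 13 in the CYP2 family, 3 in the CYP3 family and 11 in the CYP4 family. The 27 genes were covered by 56 probe sets that carry a single symbol, and 13 of them had more than 1 such probe set. Another 8 probe sets carry a family symbol together with others and were not used, which leaves out 3 symbols reached only in that way.

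Expression was measured on 20 Affymetrix HG-U133 Plus 2.0 arrays in 9 groups, all from cells differentiated for 5 days on inserts. The probiotic set was labelled from 5 µg of RNA and held medium at 8 h, co-culture for 8 h with 20 to 100 bacteria per cell of L. acidophilus NCFM, B. lactis 420 or L. salivarius Ls-33, and 24 h with 10% (v/v) of the supernatant of each of those strains, with 2 arrays in each of these 7 groups. The E. coli set, labelled from 1 µg of RNA, held medium at 24 h and 24 h with 5% (v/v) of an E. coli O157:H7 supernatant, with 3 arrays in each group. All cells were of a single line with no named genetic change, no group received broth alone, and the design describes the probiotic samples as analysed in duplicate, so that p-values measure a spread between arrays that may be technical. Each treatment was compared with the medium of its own set. For the probiotic supernatants that medium had been kept for 8 h and not 24 h, so the supernatant and the longer exposure cannot be told apart.

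Cytochrome P450 enzymes are haem proteins that insert an oxygen atom into their substrate, with electrons passed on by P450 oxidoreductase. Families 2 and 3 hold most of the enzymes that clear drugs and other foreign compounds in the liver and in the enterocytes of the small intestine, and many of their genes are controlled by the nuclear receptors PXR and CAR and by liver-enriched factors such as HNF4A. Members of family 4 mostly hydroxylate the end of fatty acid chains, which inactivates leukotrienes and makes other lipid mediators, while CYP2J2 and its relatives make epoxides of the same fatty acids.

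Values are log2 signals, and a difference of 1 is a factor of 2 in signal. The floor used below is the 40th percentile of all named genes, 2.76 over the 20 arrays, and a gene was tested where its mean in an array set reached that percentile. All 10 enterocyte markers lay at or above the floor in every group of the probiotic set and 9 of 10 in the E. coli set, where the fatty acid binding protein FABP2 was under it. Of markers of other cells, 1 of 4 leukocyte genes, 2 of 5 hepatocyte genes and 3 or 4 of 5 fibroblast genes lay at or above the floor. The leukocyte genes PTPRC, CD3E and CD79A and the hepatocyte genes TAT, CPS1 and HPX were under the floor in every group, as was the fibroblast gene DCN. LAPTM5, albumin, APOA2, COL1A1, COL3A1 and LUM were above it. PDGFRB was under the floor with B. lactis 420 cells and E. coli supernatant only. Array medians ran from 2.66 to 2.72.

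Of the 27 genes, 11 were under the floor in all 9 groups on the probe set used, and 9 of these on every probe set they have. These were CYP2A6, CYP2C8, CYP2F1, CYP3A4, CYP4A11, CYP4B1, CYP4F3, CYP4F8, CYP4F11, CYP4F22 and CYP4Z1. They include CYP3A4, the main drug-metabolising P450 of adult liver and small intestine, whose group means ran from 1.53 to 2.08 on the probe set used, CYP2C8, a hepatic enzyme for paclitaxel, at 1.84 to 2.26, and CYP4F3, a leukotriene B4 hydroxylase, at 1.61 to 2.64. The probe set used for CYP2A6, the nicotine oxidase, was 1494_f_at and lay between 2.14 and 2.53. Whether it also picks up related transcripts was not analysed here. CYP3A4 and CYP2A6 are the exceptions, since other probe sets of theirs, all of the _x_at type that can pick up related transcripts, reached the floor. For CYP3A4, 205999_x_at had group means of 2.59 to 3.21 (2.86 in 8 h medium), and for CYP2A6, 207244_x_at read 3.49 to 3.86 and 214320_x_at 2.21 to 2.83. With every probe set tested on its own, 214320_x_at was higher with NCFM cells (0.50, limma adjusted p = 0.0062), from a medium mean of 2.33, under the floor. It passed the test in no other comparison with 8 h medium. An array signal under the floor is a limit of the measurement and does not show that the transcript was missing. CYP2A7, CYP2D6 and CYP2E1 reached the floor in 1 or 2 groups and did not pass the filter.

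CYP2A7, a close relative of CYP2A6, had a group mean at or above the floor with Ls-33 cells alone, where its arrays read 2.78 and 2.81. In the other probiotic groups its arrays ran from 2.32 to 2.82, and in the E. coli set from 1.98 to 2.34. CYP2D6, the hepatic oxidase of many antidepressants and opioids, reached it with B. lactis 420 cells, at 2.70 and 2.84, and ran from 2.38 to 2.93 on the other arrays. CYP2E1, the ethanol-inducible P450, reached it with NCFM cells, at 2.89 and 2.79, and with B. lactis 420 cells, at 2.54 and 3.10, and ran from 2.15 to 2.75 elsewhere. The B. lactis 420 pairs of CYP2D6 and of CYP2E1 each lay on both sides of the floor.

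**Figure D1:**
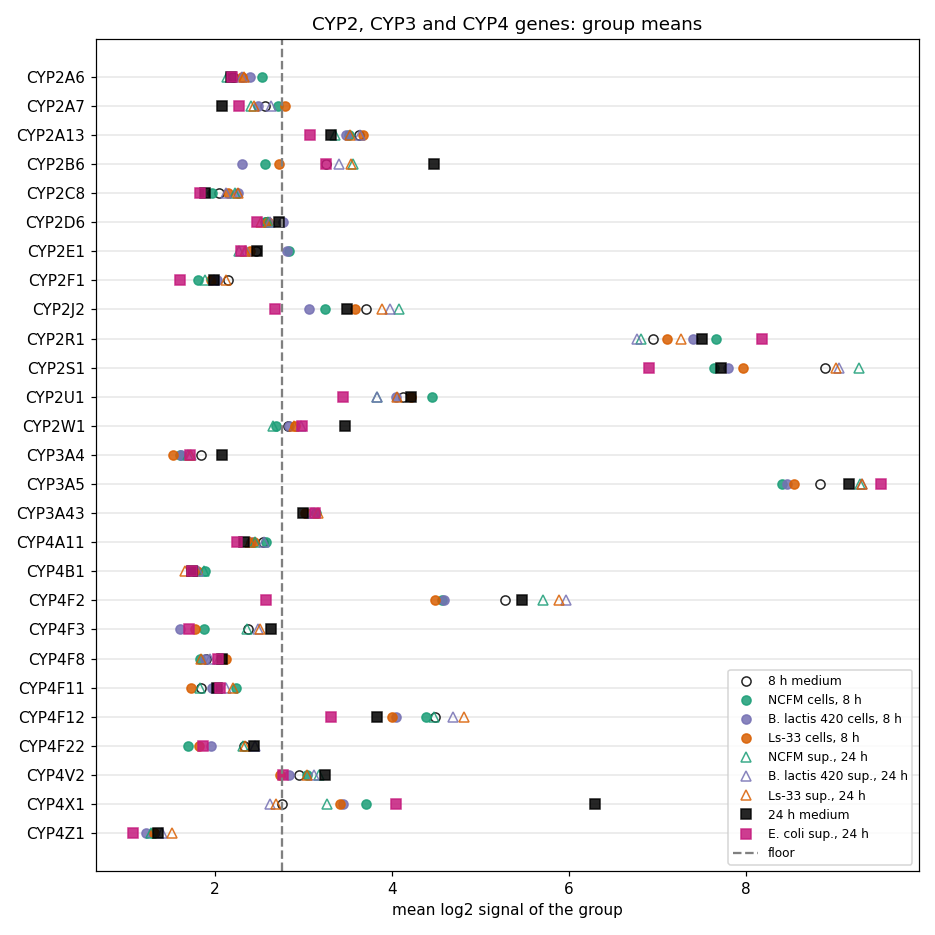
Mean log2 signal of each of the 27 genes (rows) in the 9 groups (symbols), with the floor of 2.76 as a dashed line. The rows of 11 genes lie wholly left of the line on the 1 probe set plotted per gene, and positions are to be read along a row, since levels of different probe sets are not comparable.

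The 13 genes that passed the filter in both sets were CYP2A13, CYP2B6, CYP2J2, CYP2R1, CYP2S1, CYP2U1, CYP2W1, CYP3A5, CYP3A43, CYP4F2, CYP4F12, CYP4V2 and CYP4X1. CYP2A13, an enzyme of the airway that activates tobacco nitrosamines, and CYP3A43, a CYP3A enzyme of low expression, passed the test in none of the 7 comparisons with medium. Their changes lay between -0.27 and 0.14. CYP2A13 read 3.57 and 3.68 in 8 h medium, 3.34 to 3.70 on the co-culture arrays, 3.17 to 3.71 on the probiotic supernatant arrays, 3.25, 3.44 and 3.26 in 24 h medium and 2.80, 3.29 and 3.15 with E. coli supernatant. CYP3A43 read 2.84 and 3.23 in 8 h medium, 2.78 to 3.27 on the co-culture arrays, 3.05 to 3.29 on the probiotic supernatant arrays, 2.82, 3.01 and 3.14 in 24 h medium and 3.32, 3.23 and 2.85 with E. coli supernatant. Treated and medium arrays of both genes overlapped in most comparisons. The probe set used for CYP3A43, 211442_x_at, is of the type that can pick up related transcripts. Of its others, 211441_x_at had group means of 2.84 to 3.27, above the floor. 207773_x_at (1.52 to 1.83) and 211440_x_at (1.66 to 2.18) were under the floor in every group. CYP3A5 stayed above 8 in every group.

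Start-site sequences are shown for the genes that the results turn on: CYP2S1, CYP2B6, CYP3A5 and CYP4F2, which were each lower with cells of every strain, and CYP4X1, which was higher. They are RefSeq promoters of build GRCh38.p14 from 250 bases before to 50 bases after the annotated start, on the gene's strand, and 23 of the 27 genes had an entry. Capitals mark exact matches, on either strand, to the letters searched. These were TATAAA for the box of that name, CAAAG as a half-site of HNF4, GTTAAT as a half-site of HNF1, TGAACT as a half-site of other nuclear receptors, and GCGTG as a half-site of the aryl hydrocarbon receptor and HIF. No 2 of these matches share bases in the sequences shown. The positions are chr19:41192969-41193268 (plus strand) for CYP2S1, chr19:40991032-40991331 (plus) for CYP2B6, chr7:99679947-99680246 (minus) for CYP3A5, chr19:15898025-15898324 (minus) for CYP4F2 and chr1:46961114-46961413 (plus) for CYP4X1.
CYP2S1: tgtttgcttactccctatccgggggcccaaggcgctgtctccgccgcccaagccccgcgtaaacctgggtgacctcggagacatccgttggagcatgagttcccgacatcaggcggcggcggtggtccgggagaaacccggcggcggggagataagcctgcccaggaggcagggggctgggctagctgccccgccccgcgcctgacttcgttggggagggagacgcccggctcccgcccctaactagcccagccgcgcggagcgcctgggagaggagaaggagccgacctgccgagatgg
CYP2B6: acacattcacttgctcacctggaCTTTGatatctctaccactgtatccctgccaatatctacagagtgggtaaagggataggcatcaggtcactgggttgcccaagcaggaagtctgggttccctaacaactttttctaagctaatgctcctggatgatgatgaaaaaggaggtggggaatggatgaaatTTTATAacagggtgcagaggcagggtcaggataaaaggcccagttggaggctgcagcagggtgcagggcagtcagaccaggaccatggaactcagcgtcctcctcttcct
CYP3A5: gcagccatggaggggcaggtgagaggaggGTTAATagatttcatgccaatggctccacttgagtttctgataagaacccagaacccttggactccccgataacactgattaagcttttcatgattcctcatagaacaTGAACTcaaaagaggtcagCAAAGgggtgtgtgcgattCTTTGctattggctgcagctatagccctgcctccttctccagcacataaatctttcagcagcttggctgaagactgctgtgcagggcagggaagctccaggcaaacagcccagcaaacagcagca
CYP4F2: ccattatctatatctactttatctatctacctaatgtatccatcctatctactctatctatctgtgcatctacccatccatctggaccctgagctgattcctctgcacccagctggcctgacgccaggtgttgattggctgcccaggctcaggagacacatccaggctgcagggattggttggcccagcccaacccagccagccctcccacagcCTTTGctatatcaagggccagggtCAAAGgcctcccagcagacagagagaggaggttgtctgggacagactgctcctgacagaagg
CYP4X1: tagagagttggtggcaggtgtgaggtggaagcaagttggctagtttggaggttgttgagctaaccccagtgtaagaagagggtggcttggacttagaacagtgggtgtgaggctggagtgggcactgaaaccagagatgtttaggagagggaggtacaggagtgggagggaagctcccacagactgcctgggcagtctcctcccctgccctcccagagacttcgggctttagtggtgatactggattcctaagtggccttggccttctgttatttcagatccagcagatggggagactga

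The 4 genes that were lower with all strains differed in CpG content. The CYP2S1 window held 29 CpG dinucleotides and none of the letters searched, whereas CYP2B6 and CYP4F2 held 1 CpG each and CYP3A5 held 2, against a median of 14 over 27305 promoters of the same length. CAAAG was found in CYP2B6, CYP3A5 and CYP4F2 and in 15 of the 23 promoters of the families, but 47.6% of all promoters hold it. TATAAA was found in 8 of the 23 and in 12% of all, TGAACT in 3 and in 10.5%, GTTAAT in 2 and in 6.89%, and GCGTG in 6 and in 36.3%. In the CYP2B6 window TATAAA lay on the opposite strand. CYP4X1, with 1 CpG, held none of the letters.

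Neighbouring genes were not alike in reaching the floor. Genes with starts less than 500 kb apart were taken as neighbours, among the 23 with a promoter entry. On chromosome 19, CYP2A6, CYP2A7, CYP2B6, CYP2A13 and CYP2S1 form a run. CYP2S1 and CYP2A13 were above the floor in every group, CYP2B6 in 6 groups and CYP2A7 in 1. The probe set used for CYP2A6 was under the floor, and 207244_x_at of that gene was above it. The same chromosome holds CYP4F22, CYP4F8, CYP4F3, CYP4F2 and CYP4F11, of which only CYP4F2 was tested. CYP4F12, which was also tested, had no promoter entry and was not placed. The same holds for CYP2D6, CYP2F1 and CYP4A11, which were not tested. On chromosome 7, CYP3A5 lies near CYP3A4, under the floor on 4 of its 5 probe sets, and CYP3A43. On chromosome 1, CYP4X1 lies between CYP4B1 and CYP4Z1, both under the floor.

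With cells of NCFM, CYP2S1, CYP2B6, CYP4F2, CYP2J2 and CYP3A5 fell and CYP4X1 and CYP2R1 rose, which is 7 of the 13 tested genes at an adjusted p under 0.05. With B. lactis 420 cells the same names came out, 5 lower and 2 higher. Ls-33 cells gave 5 calls, in which CYP2S1, CYP2B6, CYP4F2 and CYP3A5 fell and CYP4X1 rose. Over all 11865 genes tested, the share called was 35.3% for NCFM, 35.3% for B. lactis 420 and 38.7% for Ls-33. The lower calls alone took 18.4%, 16.9% and 19.3% of all genes and the higher calls 16.8%, 18.3% and 19.4%. Called in the same direction with all 3 strains were 4 members lower and 1 higher of the 13, beside 11.4% of all genes lower and 9.68% higher. The median change of the 13 genes was -0.11, -0.14 and -0.12, against -0.0060, 0.0087 and -0.0079 over all genes tested. The 3 comparisons use the same pair of medium arrays, so agreement between them is not independent. Whether arrays overlapped is given below for single members only. How common separation was over all genes was not counted. Without replicate 1 of the 8 h medium, the B. lactis 420 co-culture had 4 calls and that of Ls-33 had 2, which it also had without its own replicate 1.

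CYP2S1, an epithelial enzyme that acts on retinoids and prostaglandin precursors, had the lowest change among the family members with cells of NCFM. Its signal was 8.92 and 8.87 in the 8 h medium arrays, 7.84 and 7.43 with NCFM cells, 7.81 and 7.77 with B. lactis 420 cells, then 7.59 and 8.34 for Ls-33. Each of the 6 co-culture arrays was under the medium pair, and the Ls-33 replicates stood furthest apart. The change was -1.26 with NCFM cells (SE 0.16, 2.39-fold lower, adjusted p = 4.88e-06), -1.10 with B. lactis 420 cells (2.15-fold, adjusted p = 2.33e-05) and -0.93 with Ls-33 cells (1.91-fold, adjusted p = 0.000119). The call held with any single array left out, but without Ls-33 replicate 1 the change with those cells was -0.56 (adjusted p = 0.00362).

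CYP4F2, which hydroxylates leukotriene B4, arachidonic acid and vitamin K, read 5.19 and 5.37 in medium. It read 4.66 and 4.48 with NCFM cells, 4.65 and 4.52 with B. lactis 420 cells and 4.56 and 4.40 with Ls-33 cells, with no overlap with medium. The changes were -0.71, -0.69 and -0.79 (SE 0.17 for each, adjusted p = 0.00272, 0.00322 and 0.000919). Its only probe set, 210452_x_at, is of the type that can pick up related transcripts, so signal from other CYP4F genes cannot be told apart.

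CYP2B6, a bupropion and efavirenz oxidase and a well-known target of CAR, started near the floor. It read 3.32 and 3.20 in medium, 2.57 on both NCFM arrays, 2.30 and 2.32 with B. lactis 420 cells and 2.64 and 2.81 with Ls-33 cells. The co-culture means (2.57, 2.31 and 2.73) were all under the floor, so that against the floor the gene was at least 1.41-fold lower with each. The changes were -0.69, -0.95 and -0.53 (SE 0.16 for each, adjusted p = 0.00294, 0.000164 and 0.0149). The call with Ls-33 cells was lost without medium replicate 1 (adjusted p = 0.089) or Ls-33 replicate 1 (0.114). The gene's other probe set, 217133_x_at, gave -0.09, -0.13 and -0.40 with adjusted p of 0.72, 0.59 and 0.060. Its group means of 2.14 to 2.68 were all under the floor.

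CYP3A5, the CYP3A enzyme expressed in the gut of people who carry its active allele, was slightly lower with cells. It read 8.81 and 8.85 in medium, 8.42 and 8.38 with NCFM cells, 8.31 and 8.61 with B. lactis 420 cells and 8.57 and 8.51 with Ls-33 cells. Here too every co-culture array was under the medium pair. The changes were -0.43, -0.37 and -0.29 (SE 0.10 for each, adjusted p = 0.00279, 0.00777 and 0.0305), at most 1.35-fold. With Ls-33 cells the call was lost with any 1 of its 4 arrays left out, with adjusted p between 0.0736 and 0.141. With B. lactis 420 cells it was lost without medium replicate 2 (0.0527) or co-culture replicate 1 (0.165, with a change of -0.22).

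CYP2J2, which makes epoxyeicosatrienoic acids from arachidonic acid, read 3.81 and 3.61 in medium, 3.25 and 3.24 with NCFM cells and 3.08 and 3.04 with B. lactis 420 cells. With Ls-33 cells it read 3.44 and 3.73 and overlapped with medium. The change was -0.46 with NCFM cells (SE 0.17, adjusted p = 0.0425), -0.65 with B. lactis 420 cells (adjusted p = 0.00601) and -0.12 with Ls-33 cells (95% interval -0.48 to 0.24). The NCFM call was lost with any 1 of its 4 arrays left out, with adjusted p between 0.0555 and 0.223, and the B. lactis 420 call without medium replicate 1 (0.062). CYP4F12, a gut enzyme that hydroxylates arachidonic acid and antihistamines, read 4.62 and 4.36 in medium and 4.58 and 4.18 with NCFM cells. It read 4.09 and 4.0 with B. lactis 420 cells and 3.97 and 4.04 with Ls-33 cells, below medium on these 4 arrays, with changes of -0.44 and -0.48 that did not pass the test (adjusted p = 0.0882 and 0.0598).

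CYP2R1, the main vitamin D 25-hydroxylase, went the other way. It read 6.85 and 7.05 in medium, 7.77 and 7.56 with NCFM cells, 7.34 and 7.46 with B. lactis 420 cells and 7.17 and 7.04 with Ls-33 cells. NCFM and B. lactis 420 arrays were all above medium, and the Ls-33 arrays overlapped with it. The changes were 0.71 (SE 0.13, 1.64-fold, adjusted p = 0.000292), 0.45 (adjusted p = 0.0122) and 0.15 (95% interval -0.13 to 0.42). The B. lactis 420 call was lost without medium replicate 1 (0.119) or co-culture replicate 2 (0.0907). A second probe set, 207786_at, gave 0.35 and 0.26 with NCFM and B. lactis 420 cells, neither past the test.

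CYP4X1, a P450 with few known substrates, rose from the floor. It read 2.68 and 2.83 in medium, 3.57 and 3.85 with NCFM cells, 3.30 and 3.59 with B. lactis 420 cells and 3.61 and 3.22 with Ls-33 cells. All co-culture arrays were above medium, by 0.95 (SE 0.21, adjusted p = 0.0014), 0.69 (0.0145) and 0.66 (0.0162) on average. The medium mean of 2.76 was itself just under the floor, against which CYP4X1 was at least 1.93-fold, 1.61-fold and 1.58-fold higher. Without medium replicate 1 the adjusted p was 0.0929 for B. lactis 420 and 0.10 for Ls-33, and the calls were also lost without B. lactis 420 replicate 2 (0.129) and Ls-33 replicate 1 (0.181).

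The remaining tested genes, CYP2U1, CYP2W1 and CYP4V2, changed by between -0.22 and 0.33 with cells, none past the test. CYP2U1 read 4.02 and 4.23 in medium, 4.70 and 4.22 with NCFM cells, 3.94 and 4.16 with B. lactis 420 cells and 4.50 and 3.94 with Ls-33 cells. CYP2W1 read 2.85 and 2.81 in medium and 2.47 to 3.16 on the co-culture arrays, and CYP4V2 2.92 and 3.0 in medium and 2.73 to 3.11 with cells. Apart from CYP4V2 with Ls-33 cells (2.74 and 2.73), the co-culture arrays of these genes overlapped with medium.

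**Figure D2:**
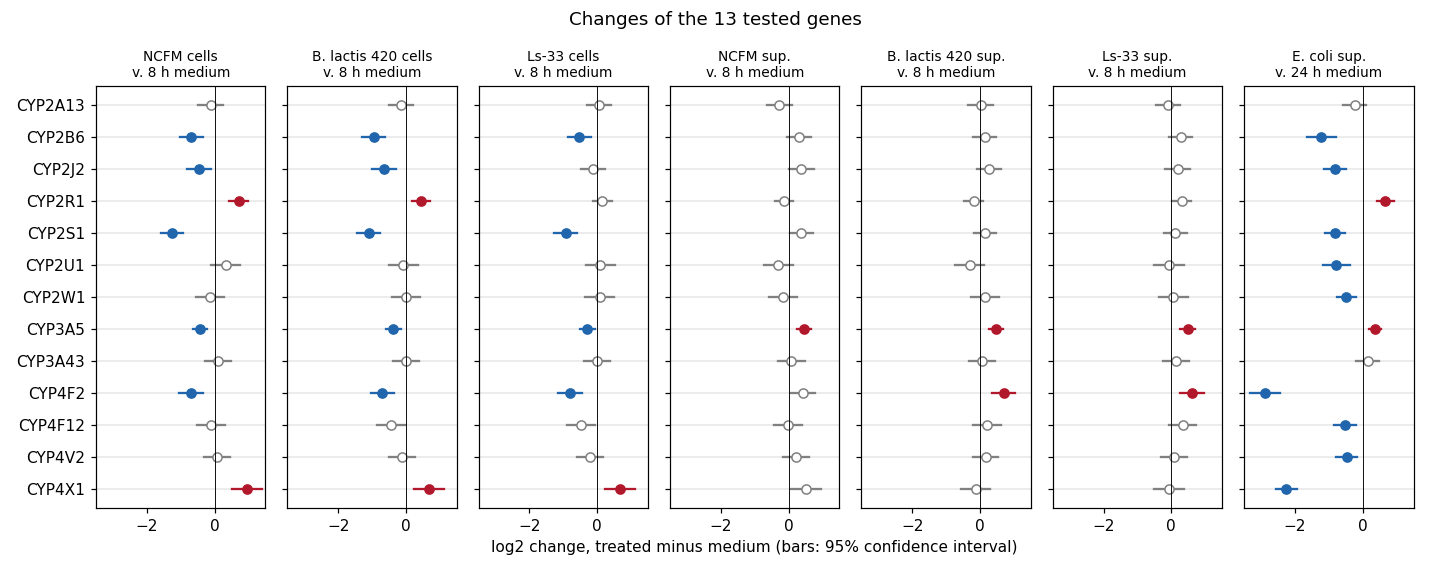
Log2 change of the 13 tested genes (rows) in 7 comparisons with medium (panels), with 95% confidence intervals as bars and filled symbols for an adjusted p under 0.05 (blue lower, red higher). CYP2S1, CYP2B6, CYP3A5 and CYP4F2 are blue in the 3 panels of bacterial cells, and CYP4F2 (-2.89) and CYP4X1 (-2.25) lie furthest left with the E. coli supernatant.

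A difference among strains passed the test in a single member. An F-test was run over the 3 co-cultures. Its contrasts leave out medium, though the medium arrays enter the shared estimate of the spread and the filter. The test called CYP2R1 (range of the means 0.56, adjusted p = 0.0184) and none of the other 12, while 13.7% of all genes were called. Without NCFM co-culture replicate 1 or Ls-33 co-culture replicate 2 the test called 0 members. Among the 3 supernatants limma called no member at an adjusted p under 0.05, with 2 members at an unadjusted p under 0.05 and a smallest adjusted p of 0.369, against 0.0337% of all genes called.

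With the probiotic supernatants no tested member was called lower. CYP3A5, on the probe set used, rose with each of them, and CYP4F2 rose with those of B. lactis 420 and Ls-33. These 3 comparisons also share their medium arrays, so agreement between them is not independent. That made 1 member called with NCFM supernatant, 2 with B. lactis 420 and 2 with Ls-33, where 11.3%, 15.2% and 16.6% of all genes were called, with 5.28%, 5.98% and 8.48% higher and 5.98%, 9.20% and 8.14% lower. Over all genes, 3.46% were called higher with all 3 supernatants and 3.89% lower, where 1 member of 13 was higher and 0 lower. The median change of the 13 genes was 0.22, 0.15 and 0.14, against -0.018, -0.042 and -0.010 over all genes.

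CYP3A5 read 9.26 and 9.30 with NCFM supernatant, 9.29 and 9.32 with B. lactis 420 and 9.48 and 9.15 with Ls-33, all above the 8 h medium arrays. The changes were 0.45, 0.47 and 0.48 (SE 0.10 for each, 1.37 to 1.40-fold, adjusted p = 0.00707, 0.00409 and 0.00295). The medium arrays kept for 24 h, in the other set, read 9.24, 9.18 and 9.06. The rise is that of the probe set used. As given below, 214234_s_at did not pass the test with these supernatants. 214235_at went down with those of B. lactis 420 and Ls-33, not past the test. The call was lost with NCFM supernatant without medium replicate 1 (0.0544) or supernatant replicate 2 (0.0511), which left no member called there, and with Ls-33 supernatant without its replicate 1 (0.0792, with a change of 0.32).

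CYP4F2 read 5.76 and 5.65 with NCFM supernatant, 5.83 and 6.11 with B. lactis 420 and 5.92 and 5.85 with Ls-33. All were above the 8 h medium arrays, and the 24 h medium arrays read 5.68, 5.54 and 5.18. The changes were 0.43 (adjusted p = 0.107), 0.69 (SE 0.17, adjusted p = 0.00867) and 0.61 (adjusted p = 0.0172). Both calls were lost without medium replicate 1 (0.0738 and 0.119), the former also without B. lactis 420 supernatant replicate 2 (0.11) and the latter without either Ls-33 supernatant array (0.0989 and 0.0792). Without medium replicate 1, or replicate 2 of the B. lactis 420 supernatant, 1 member remained called with that supernatant. With Ls-33 supernatant 1 was called without medium replicate 1 or its own replicate 2, and 0 without its replicate 1.

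CYP2S1 read 9.27 on both NCFM supernatant arrays, 9.07 and 9.03 with B. lactis 420 supernatant and 9.06 and 8.96 with that of Ls-33. Its changes of 0.38, 0.15 and 0.11 did not pass the test (adjusted p = 0.14, 0.569 and 0.683). CYP2B6 read 3.38 and 3.75, 3.48 and 3.32, and 3.41 and 3.67 with the supernatants of NCFM, B. lactis 420 and Ls-33, changes of 0.31, 0.14 and 0.28 that did not pass either.

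CYP2J2 read 4.06 and 4.11, 4.06 and 3.91, and 4.06 and 3.72 with the supernatants in the same order (changes 0.38, 0.28 and 0.18). CYP2R1 read 6.67 and 6.96, 6.71 and 6.82, and 7.29 and 7.23 (changes -0.14, -0.19 and 0.31). CYP4X1 read 3.04 and 3.49, 2.36 and 2.90, and 2.81 and 2.57 (changes 0.51, -0.13 and -0.07). None of these passed the test. The NCFM and B. lactis 420 arrays of CYP2J2, the Ls-33 arrays of CYP2R1 and the NCFM arrays of CYP4X1 all lay above medium. The B. lactis 420 arrays of CYP2R1 lay below it. CYP4F12 ran from 4.42 to 5.03 on the supernatant arrays, CYP2U1 from 3.74 to 4.18, CYP2W1 from 2.50 to 3.22 and CYP4V2 from 2.84 to 3.40, also without a call. CYP2U1 was 0.30 below medium on the log2 scale with the supernatants of NCFM and B. lactis 420, and CYP2A13 0.27 below it with that of NCFM. Their arrays did not overlap with medium there, and the adjusted p was 0.388, 0.359 and 0.342.

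The 8 h and 24 h media themselves differed in several members, with array set, RNA input and time not separable. CYP4X1 read 2.76 and 6.29, CYP2B6 3.26 and 4.47, CYP2S1 8.89 and 7.72, CYP4F12 4.49 and 3.84, and CYP2W1 2.83 and 3.47. The CYP4X1 difference of 3.54 was larger than any of its changes with treatment.

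Co-cultures were also set directly against supernatants, as the mean over the 3 strains in each format, a contrast that leaves out medium but in which format and time (8 h and 24 h) cannot be told apart. It called 9 of the 13 members, 6 lower and 3 higher in co-culture, where 55.8% of all genes were called, 25.2% lower and 30.6% higher. CYP2S1 differed by -1.31 (means 7.80 and 9.11), CYP4F2 by -1.31 (4.54 and 5.85), CYP2B6 by -0.96 (2.54, under the floor, and 3.50, at least 1.67-fold) and CYP3A5 by -0.83 (8.47 and 9.30), each with no overlap between the 6 arrays of a format. CYP2J2 (-0.69) and CYP4F12 (-0.52) were also lower in co-culture, and CYP4X1 (0.66), CYP2R1 (0.44) and CYP2U1 (0.34) higher, with some overlap of arrays. The CYP2U1 call, with an adjusted p of 0.0215, was lost when any 1 of 5 arrays was left out (adjusted p 0.057 to 0.0953): NCFM co-culture replicate 1, B. lactis 420 co-culture replicate 2, Ls-33 co-culture replicate 1, NCFM supernatant replicate 2 and Ls-33 supernatant replicate 2.

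**Figure D3:**
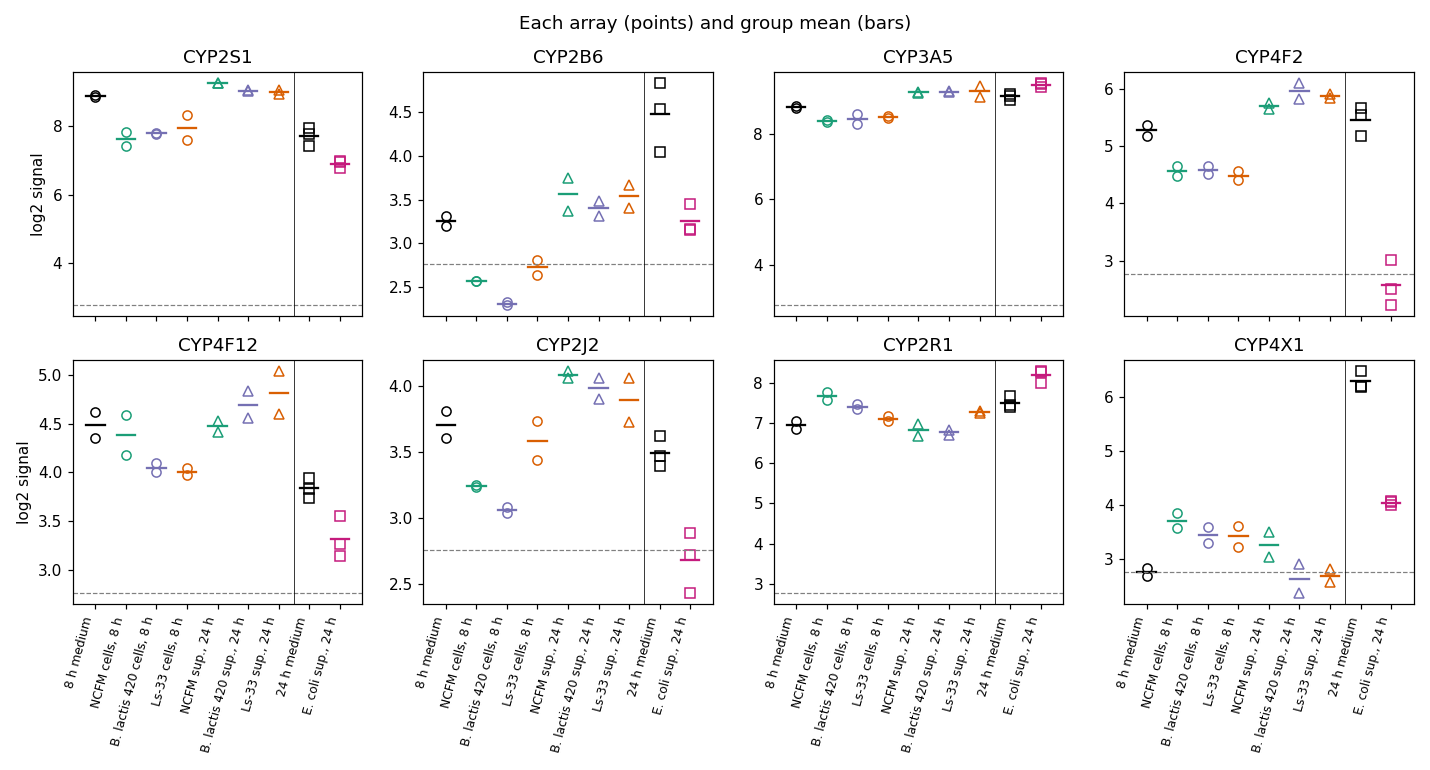
Log2 signal of 8 member genes on each array (points) with group means (short bars), the floor of 2.76 (dashed) and a vertical line between the probiotic and E. coli sets. The scale differs between panels; CYP2S1 in co-culture (7.43 to 8.34) lies below 8 h medium, and CYP4F2 falls to 2.22 to 3.00 with E. coli supernatant.

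The E. coli O157:H7 supernatant changed 11 of the 13 tested members, 9 lower and 2 higher. CYP4F2 and CYP4X1 had the lowest changes, CYP2B6, CYP2J2, CYP2S1, CYP2U1, CYP4F12, CYP2W1 and CYP4V2 fell by less, and CYP2R1 and CYP3A5 rose. In this comparison 64.1% of all genes were called, 27.8% lower and 36.3% higher. The median change of the 13 genes was -0.52 against 0.048 over all genes. With each of the 6 arrays left out in turn, 11 members were called.

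CYP4F2 read 5.68, 5.54 and 5.18 in 24 h medium and 3.00, 2.51 and 2.22 with the supernatant. The treated mean of 2.58 was under the floor, so only a bound can be given: relative to the floor the gene was at least 6.52-fold lower. The measured change was -2.89 (SE 0.21, adjusted p = 1.83e-07). CYP4X1 read 6.19, 6.21 and 6.48 in medium and 4.05, 4.08 and 4.0 with the supernatant, a change of -2.25 (SE 0.14, 4.75-fold lower, adjusted p = 7.86e-08). Neither gene's groups overlapped. CYP4X1 thus fell here and rose with bacterial cells, from a much lower level in 8 h medium, and the difference between the 2 sets was not tested.

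CYP2B6 read 4.83, 4.54 and 4.05 in medium and 3.45, 3.17 and 3.15 with the supernatant, 2.33-fold lower (change -1.22, SE 0.19, adjusted p = 0.00015). CYP2S1 read 7.95, 7.43 and 7.78 in medium and 6.95, 6.76 and 6.99 with the supernatant (change -0.82, SE 0.14, adjusted p = 0.000267). CYP2J2 read 3.39, 3.62 and 3.47 in medium and 2.89, 2.72 and 2.43 with the supernatant (change -0.81, SE 0.15, adjusted p = 0.000427). Every treated array of these genes lay below every medium array. Such separation was not counted over all genes, of which 64.1% were called here. The treated mean of CYP2J2, 2.68, was under the floor (at least 1.66-fold lower).

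CYP2U1, which hydroxylates long-chain fatty acids, read 3.87, 4.50 and 4.29 in medium and 3.46, 3.23 and 3.65 with the supernatant, a change of -0.77 (SE 0.18, adjusted p = 0.00258). Its other tested probe set, 226393_at, gave -0.31 with an adjusted p of 0.0639. The 2 groups did not overlap.

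CYP4F12 read 3.74, 3.94 and 3.83 in medium and 3.14, 3.55 and 3.26 with the supernatant (change -0.52, SE 0.15, adjusted p = 0.00865). CYP2W1, a P450 of fetal gut and colorectal tumours, read 3.31, 3.57 and 3.52 in medium and 3.03, 3.01 and 2.93 with the supernatant (change -0.48, SE 0.13, adjusted p = 0.00697). CYP4V2, a fatty acid hydroxylase mutated in Bietti crystalline dystrophy, read 3.06, 3.37 and 3.30 in medium and 2.71, 2.91 and 2.70 with the supernatant (change -0.48, SE 0.14, adjusted p = 0.00883). A second probe set of CYP4V2, 228391_at, gave -0.54 (0.0032). CYP4F12, CYP2W1 and CYP4V2 also showed no overlap between groups, which was not counted over all genes.

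CYP2R1 rose from 7.66, 7.40 and 7.45 to 8.27, 7.98 and 8.28 (change 0.67, SE 0.12, 1.59-fold, adjusted p = 0.000293). Its second probe set gave 0.76 (adjusted p = 0.0006). CYP3A5 read 9.24, 9.18 and 9.06 in medium and 9.57, 9.46 and 9.54 with the supernatant (change 0.36, SE 0.08, 1.29-fold, adjusted p = 0.00128). The treated arrays of both genes were above all medium arrays.

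The 4 probe sets of CYP3A5 did not move alike. The probe set used, 205765_at, and 214234_s_at were lower with cells of all strains and higher with E. coli supernatant, past the test in each case when every probe set was tested on its own. 214234_s_at gave -0.70, -0.51 and -0.32 with cells and 0.30 with E. coli supernatant, but its 0.25, 0.29 and 0.28 with the probiotic supernatants did not pass. 214235_at gave -0.65 (adjusted p = 0.001), -0.19 and -0.32 with cells and -0.37 and -0.33 with the supernatants of B. lactis 420 and Ls-33, only the value with NCFM cells past the test. 243015_at rose with Ls-33 cells (0.77, adjusted p = 0.020). Which transcripts each probe set matches was not analysed here.

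**Figure D4:**
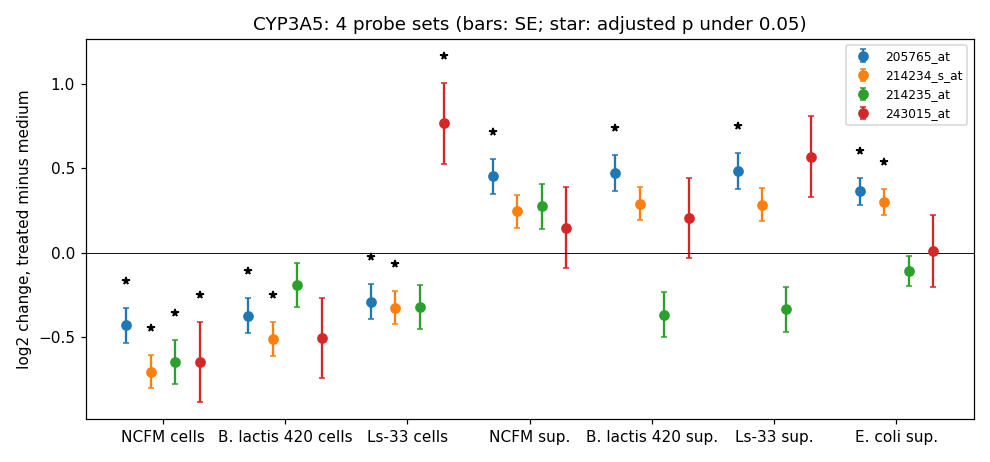
Log2 change of the 4 CYP3A5 probe sets (colours) in 7 comparisons with medium, with SE bars and a star where the adjusted p over all probe sets tested was under 0.05. 205765_at and 214234_s_at run together, while 243015_at stands at 0.77 with Ls-33 cells.

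Genes around the families were described from 5 lists: nuclear receptors and liver-enriched factors, redox partners and haem enzymes, other P450 families, targets of PXR, CAR and VDR outside the P450s, and epoxide and eicosanoid steps. Of the receptors and factors, 27 of 39 were tested in the probiotic set, and 13, 13 and 12 fell with cells of NCFM, B. lactis 420 and Ls-33 while 1, 2 and 0 rose. Their median change was -0.24, -0.28 and -0.28, against -0.0060, 0.0087 and -0.0079 over all genes tested. Of all genes, 18.4%, 16.9% and 19.3% were called lower and 16.8%, 18.3% and 19.4% higher. NR1I3, the receptor CAR, went from 6.37 in 8 h medium to 3.53, 3.81 and 3.96 with cells (changes of -2.84, -2.56 and -2.41), and changed by 0.23, 0.04 and 0.21 with the supernatants, none past the test. PPARA, the fatty acid receptor that controls CYP4A genes, fell by 1.90, 1.80 and 1.84 on the log2 scale with cells, and CEBPA, a liver-enriched factor, by 0.90, 1.10 and 1.46. With probiotic supernatants 3, 2 and 3 of the 27 fell and 1, 2 and 3 rose, where 11.3%, 15.2% and 16.6% of all genes were called.

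With E. coli supernatant 10 of 28 tested receptors and factors fell and 10 rose, and their median change was 0.052. Over all genes 27.8% were called lower and 36.3% higher, with a median change of 0.048. NR1I3 fell from 4.40 to 2.34, under the floor (at least 3.12-fold lower), and PPARA from 7.87 to 5.41. CEBPA fell by 0.36 and NFE2L2, the oxidative stress factor NRF2, rose by 1.65. VDR, the vitamin D receptor, passed the test in none of the 7 comparisons.

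All 18 redox and haem genes with a probe set were tested. With cells of NCFM, B. lactis 420 and Ls-33, 44.4%, 27.8% and 38.9% were called, beside 35.3%, 35.3% and 38.7% of all genes. With E. coli supernatant the share was 77.8%, beside 64.1% of all genes. P450 oxidoreductase (POR), which supplies the electrons, fell with cells of each strain (-0.59, -0.45 and -0.46) and with E. coli supernatant (-0.54). In all, 6, 3 and 5 of the list rose with cells and 2 fell in each co-culture, and with E. coli supernatant 6 rose and 8 fell. Haem oxygenase HMOX1 rose by 2.79 with E. coli supernatant, from 5.60 to 8.39, and ALAS1, the rate-limiting enzyme of haem synthesis, by 0.96. With cells ALAS1 changed by 0.04, 0.45 and 0.33, the latter 2 past the test, and the biliverdin reductase BLVRB rose by 0.19, 0.28 and 0.17.

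Of the P450 genes outside the 3 families, 11 of 25 were tested. The share called was 72.7%, 54.5% and 63.6% with cells, beside 35.3%, 35.3% and 38.7% of all genes. With E. coli supernatant it was 72.7%, beside 64.1% of all genes. With cells 7, 6 and 6 fell and 1, 0 and 1 rose, with medians of -0.60, -0.65 and -0.91. CYP11A1, which starts steroid synthesis from cholesterol, fell by 1.87, 2.02 and 2.33 on the log2 scale with cells and by 0.49, 0.65 and 0.45 with the supernatants. CYP1A1, the target of the aryl hydrocarbon receptor, fell with cells (-0.55, -0.65 and -1.0) and rose with E. coli supernatant (1.04). The prostacyclin synthase PTGIS fell with cells (-1.06, -0.87 and -1.14) and by 3.02 with E. coli supernatant, where 5 of the 11 fell and 3 rose.

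Among targets of PXR, CAR and VDR, 12 of 20 were tested, and 6, 6 and 5 fell and 0, 1 and 1 rose with cells. This was 50%, 58.3% and 50% called, beside 35.3%, 35.3% and 38.7% of all genes. With E. coli supernatant 83.3% were called, beside 64.1% of all genes. The glutathione transferase GSTA1 fell by 0.33, 0.51 and 0.66. The sulfotransferase SULT2A1 changed by -0.02, -0.63 and -1.11, the latter 2 past the test, and the carboxylesterase CES1 by -0.08, 0.31 and 0.70, with the same 2 strains past the test. With E. coli supernatant 7 of the 12 rose and 3 fell, with GSTA1 at -0.92, SULT2A1 at -0.47 and CES1 at 0.0060, not past the test.

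Of the genes for epoxide and eicosanoid steps, 15 of 20 were tested in the probiotic set and 14 in the E. coli set. With cells 6 fell in each co-culture and 2, 4 and 4 rose, and with E. coli supernatant 9 fell and 4 rose. The shares called were 53.3%, 66.7%, 66.7% and 92.9%, beside 35.3%, 35.3%, 38.7% and 64.1% of all genes. HPGD, which inactivates prostaglandins, fell by 0.23, 0.40 and 0.39 with cells and by 1.60 with E. coli supernatant. PTGS2, the inducible cyclooxygenase, changed by 0.22, 0.27 and 0.53 with cells, the latter 2 past the test, and rose by 2.28 with E. coli supernatant. With the probiotic supernatants 1 to 3 genes rose and 1 to 3 fell in each of the last 4 lists, where 11.3%, 15.2% and 16.6% of all genes were called. The share of all genes called, given above for each comparison, is the measure against which these counts are to be read.

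**Figure D5:**
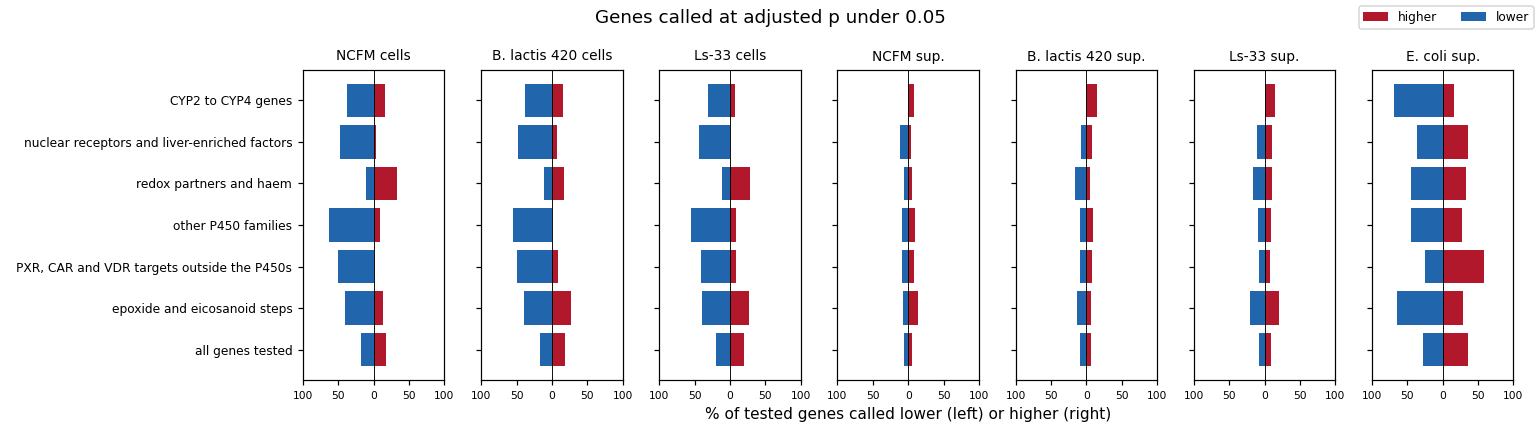
Percentage of tested genes called lower (blue, left) or higher (red, right) in 7 comparisons, for the CYP2 to CYP4 genes, the 5 lists and all genes tested. With NCFM cells 5 of 13 CYP genes and 13 of 27 receptors and factors are lower, beside 18.4% of all genes.

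Some measures of the samples moved with these results. The difference between the 3′ and 5′ probe sets of beta-actin, which grows with RNA breakdown or short labelling products, averaged 0.84 with 8 h medium, 1.40, 1.18 and 1.24 with the co-cultures and 1.05 to 1.09 with the probiotic supernatants, and 2.00 and 2.17 with 24 h medium and E. coli supernatant. For GAPDH it averaged -0.0074 with 8 h medium, 0.104, 0.047 and 0.070 with the co-cultures and between -0.014 and 0.010 with the probiotic supernatants, and it was 0.117 to 0.223 on the 24 h medium arrays and 0.246 to 0.337 on the E. coli arrays. The mean level of the 10 enterocyte markers was 8.70 to 8.75 on the 8 h medium arrays, 8.31 to 8.59 on the co-culture arrays, 8.81 to 9.02 on the probiotic supernatant arrays, 8.23 to 8.25 on the 24 h medium arrays and 8.20 to 8.29 on the E. coli arrays. The mean of the 5 hepatocyte markers was 4.98 on both 8 h medium arrays, 4.36 to 4.56 on the co-culture arrays, 4.66 to 4.89 on the probiotic supernatant arrays, 6.0 to 6.19 on the 24 h medium arrays and 5.44 to 5.49 on the E. coli arrays. The mean of the 4 leukocyte markers was 2.94 to 3.00 on the 8 h medium arrays, 2.45 to 2.57 on the co-culture arrays, 2.88 to 3.03 on the probiotic supernatant arrays, 2.76 to 2.86 on the 24 h medium arrays and 2.20 to 2.28 on the E. coli arrays. Only LAPTM5 of these was tested, and it fell by 1.75, 1.66 and 1.85 with cells and by 1.89 with E. coli supernatant. The mean of the 5 fibroblast markers was 6.87 to 6.88, 6.49 to 6.78, 6.88 to 7.05, 6.75 to 6.99 and 6.40 to 6.48 in the same order. The part of these measures in the changes of the P450 genes was not tested. In bulk samples of a single line, fewer cells in a given state and less RNA per cell cannot be told apart.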

How the data were processed

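Gene expression was measured in 20 arrays of Caco-2 cells. The deposited values are log2 probe-set signals. RMA is the method that the submitters' processing notes name for how the authors made them, and neither the version nor whether both sets were normalized together is given in the sources used here. Summarising and quantile normalization make values relative to the whole array. Background correction was taken as deposited, no detection calls were used, and the floor described above stands in for them.

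Of 54675 probe sets, 41091 carry 1 gene symbol. For each of the 19775 named genes the probe set of highest mean signal over the 20 arrays was used, with _x_at sets taken only where a gene had no other (4 members). Genes at or above the 40th percentile in mean signal (2.74 in the probiotic set, 2.78 in the E. coli set) were tested, 11865 in each. limma 3.58.1 in R 4.3.3 (lmFit, eBayes with a trend) was fitted over the 14 probiotic and the 6 E. coli arrays separately, with groups from the labels. Calls are at a Benjamini-Hochberg adjusted p under 0.05 over all genes tested. Scripts were tested on simulated data.

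Members and gene lists were chosen with earlier results of these data known. Every member is accounted for, with values by array or their range for those called or above the floor in a group. Named from each list were up to 3 genes with the smallest adjusted p over the 7 comparisons with medium, plus CAR, VDR and POR. PXR (NR1I2) and HNF4A were not analysed here. Alternatives were the filter, the floor, the normalization, the trend, the arrays in the fit, the probe set, a replicate block and each array left out. Replicate numbers were not treated as pairs, since no pair of same-numbered arrays deviated together, with correlations of -0.10 to 0.057 in 21 pairs of the probiotic set and -0.14 to 0.036 in 3 of the E. coli set. The number of arrays limits the precision. Statements that arrays did or did not overlap describe single members, and the share of all genes without overlap is not given here.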

Additional observations from a re-analysis of the deposited data

Results flagged for a closer look

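A direct test between co-cultures and supernatants (mean over 3 strains, with 8 h and 24 h not separable from format) called 9 of 13 members, where 55.8% of all genes were called. Relative to the supernatants, log2 signal in co-culture differed by -1.31 for CYP2S1, -1.31 for CYP4F2, -0.96 for CYP2B6, -0.83 for CYP3A5, -0.69 for CYP2J2 and -0.52 for CYP4F12, and by 0.66 for CYP4X1, 0.44 for CYP2R1 and 0.34 for CYP2U1. The test among the 3 co-cultures called CYP2R1, whose means spanned 0.56, with NCFM cells highest and Ls-33 cells lowest.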

How the results depend on the processing

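A filter at the 60th percentile left 4 members tested, of which 4 were called with NCFM cells, 4 with B. lactis 420 cells, 3 with Ls-33 cells, 4 with E. coli supernatant and 4 in co-cultures against supernatants, where 45.1%, 44.6%, 48.9%, 71.0% and 65.3% of all 7910 genes tested were called. With NCFM supernatant 0 members were called without the trend and 2 with only the compared groups in the fit, and the F-test among co-cultures called 2 members with all their probe sets kept. Members under the floor in all groups numbered 22 with the floor at the 60th percentile and 2 at the 20th. Leaving out each array in turn gave 6 members in every case with NCFM cells, 4 to 6 with B. lactis 420 cells, 2 to 4 with Ls-33 cells, 0 to 1 with NCFM supernatant, 1 to 2 with B. lactis 420 supernatant, 0 to 2 with Ls-33 supernatant, 11 throughout with E. coli supernatant, 8 to 10 in co-cultures against supernatants, 0 to 1 for the F-test among co-cultures and 0 for that among supernatants. A fit with the replicate number as a block gave 7, 7 and 5 with cells, 1, 2 and 2 with probiotic supernatants, 11 with E. coli supernatant, 9 in co-cultures against supernatants, and 1 and 0 in the F-tests, all as without it.

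Direction reversed only for other probe sets: CYP3A5 by 243015_at with Ls-33 cells (0.77) and by 214235_at with the supernatants of B. lactis 420 (-0.37), Ls-33 (-0.33) and E. coli (-0.11), and CYP2U1 by 226393_at in co-cultures against supernatants (-0.0074). The cause was not tested. Of 270 values of single members with an array left out, 238 kept their call and 32 lost it, and of 279 under other settings 250 kept it and 24 lost it. Without a filter CYP3A5 with Ls-33 cells (adjusted p = 0.0509) and CYP2J2 with NCFM cells (0.0684) were no longer called, while members outside the filter were called: CYP4F3 lower with cells of NCFM (-0.50), B. lactis 420 (-0.77) and Ls-33 (-0.60), with E. coli supernatant (-0.93) and in co-cultures against supernatants (-0.70), CYP4F22 lower with NCFM cells (-0.63), E. coli supernatant (-0.57) and in co-cultures against supernatants (-0.55), CYP2F1 (-0.38) and CYP3A4 (-0.35) lower with E. coli supernatant, and CYP2E1 higher in co-cultures against supernatants (0.36). Apart from CYP2E1 these were under the floor in all groups on the probe set used, so no fold is given. Without the filter 20.0%, 20.0% and 22.5% of all genes were called with cells of the 3 strains, 40.5% with E. coli supernatant and 34.6% in co-cultures against supernatants. The floor and the dim signals of most members limit what these arrays can show.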
